A study of Mus musculus with 2 samples.

Results

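The primitive streak nuclei described here were 450 of the 11605 deposited barcodes (3.88%) that held 3000 to 30000 RNA UMIs (unique molecular identifiers, each counting 1 captured RNA molecule) and at least 2000 peak counts. They were chosen on RNA. A barcode needed at least 1 UMI of T and was ranked by a score, the mean over the 7 streak genes T, Fgf8, Wnt3, Wnt3a, Mixl1, Evx1 and Sp5 minus the mean over the 4 mesoderm genes Mesp1, Mesp2, Lefty2 and Pcdh19, each as ln(1 + UMIs per 10000 UMIs). The 450 highest scores were taken from the 2774 barcodes with a T UMI. The highest score was 1.22 and the median 0.605, against a median of 0.118 in the other T-positive nuclei. The lowest score inside was 0.4911 and the highest outside 0.4909, so the boundary fell within a continuous range.

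Mouse embryos at embryonic day 7.0 (E7.0) had been pooled, dissociated with TrypLE and taken to nuclei, and nuclear RNA and accessible chromatin were read from the same nuclei with the 10x Genomics chemistry. GEO lists 2 samples, 1 library for RNA and 1 for accessibility, and all 15341 barcodes occur in both. Age, titles and protocol named E7.0 embryos, whereas the tissue, source and cell type entries named small intestine, distal colon and goblet cells, and the strain entry read RedMUC298trTg. No genotype of the embryos beyond that entry, no treatment and no map from nuclei to embryos was given in the sources used here. With 1 library per assay no test was possible, so ratios are given with 95% exact intervals that cover counting error only, and embryo-to-embryo spread is unknown.

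The streak nuclei were compared with all 11155 other nuclei of the depth range and with narrower groups from the same libraries. The other T-positive nuclei numbered 2324. Epiblast-like nuclei were 450 nuclei with no UMI of T or of the 4 mesoderm genes and the highest RNA of Pou5f1, Utf1, Fgf5, Slc7a3, Dnmt3b and L1td1 against that of Elf5, Esrrb, Apob and Cubn. Mesoderm-end nuclei were the 450 lowest values of the streak score. A group of 450 visceral endoderm-end nuclei, with the highest RNA of visceral endoderm genes, served as a background for genes that this tissue should largely lack. Median depth was 11105 UMIs and 20444 peak counts in streak nuclei, 11361 and 19400 in all other nuclei, 10655.5 and 20282 in epiblast-like nuclei, 11242 and 21736.5 in mesoderm-end nuclei, and 15090 and 17709.5 in visceral endoderm-end nuclei. Doublet calls made up 2.44% of streak nuclei, 6.38% of all other nuclei, 10.4% of other T-positive nuclei, 6.44% of mesoderm-end nuclei and 0.667% of epiblast-like nuclei.

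The primitive streak is the posterior furrow of the epiblast through which cells leave the epithelium during gastrulation to form mesoderm and definitive endoderm. Wnt3 and Nodal signalling from the epiblast and its surroundings set it up, Brachyury (the product of T), Eomes and Mixl1 are its transcription factors, and Fgf8 drives the exit of cells from it. Its anterior end gives rise to the node, axial mesoderm and definitive endoderm, and its posterior end to extraembryonic mesoderm.

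The RNA of the genes in the score is given first as a description, because the score chose the nuclei on it. T RNA stood at 259 counts per 1000000 UMIs of the group (CPM) in streak nuclei, 31.3 in all other nuclei, 135 in other T-positive nuclei, 44.5 in mesoderm-end nuclei, 7.96 in visceral endoderm-end nuclei and 0 in epiblast-like nuclei. The lowest, median and highest T counts per streak nucleus were 1, 2 and 18 UMIs, with 138 nuclei at 1 UMI and 93 at 5 or more. Most nuclei thus entered the set on few T molecules. In visceral endoderm-end nuclei 9.11% held a T UMI.

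Fgf8, the FGF ligand of the streak, stood at 265 CPM against 67.4 in all other nuclei, 63.5 in epiblast-like nuclei and 47.7 in mesoderm-end nuclei. Wnt3 and Wnt3a, the Wnt ligands of the posterior epiblast and streak, reached 126 and 20.03 CPM, against 33.4 and 1.48 in all other nuclei. Wnt3a was the sparsest marker and the one with the widest ratio, 13.6 (10.6 to 17.2). A Wnt3a UMI was present in 17.1% of streak nuclei, 1.60% of all other nuclei and 0.444% of visceral endoderm-end nuclei. Mixl1, a homeobox gene needed for mesoderm and endoderm patterning, stood at 145 CPM against 35.3. Evx1, a homeobox gene of the posterior streak, stood at 49.98 against 13.9. Sp5, a zinc finger gene induced by Wnt signalling, stood at 161 against 41.3.

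The 4 genes subtracted in the score were low by construction. Mesp1 and Mesp2, basic helix-loop-helix genes of nascent mesoderm, stood at 38.9 and 1.87 CPM in streak nuclei and at 457 and 55.5 in mesoderm-end nuclei. Lefty2, a Nodal antagonist, and Pcdh19, a protocadherin, stood at 4.68 and 2.06 CPM against 285 and 326. Measured on UMIs that the choice had not used, as is done for the markers further on, Mesp1 and Mesp2 did not differ from all other nuclei beyond counting error. Every one of the streak nuclei held RNA of at least 2 of the 7 markers, and 161 nuclei (35.8%) held 4 of them. All 7 were detected in 20 nuclei (4.44%).

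**Figure D1:**
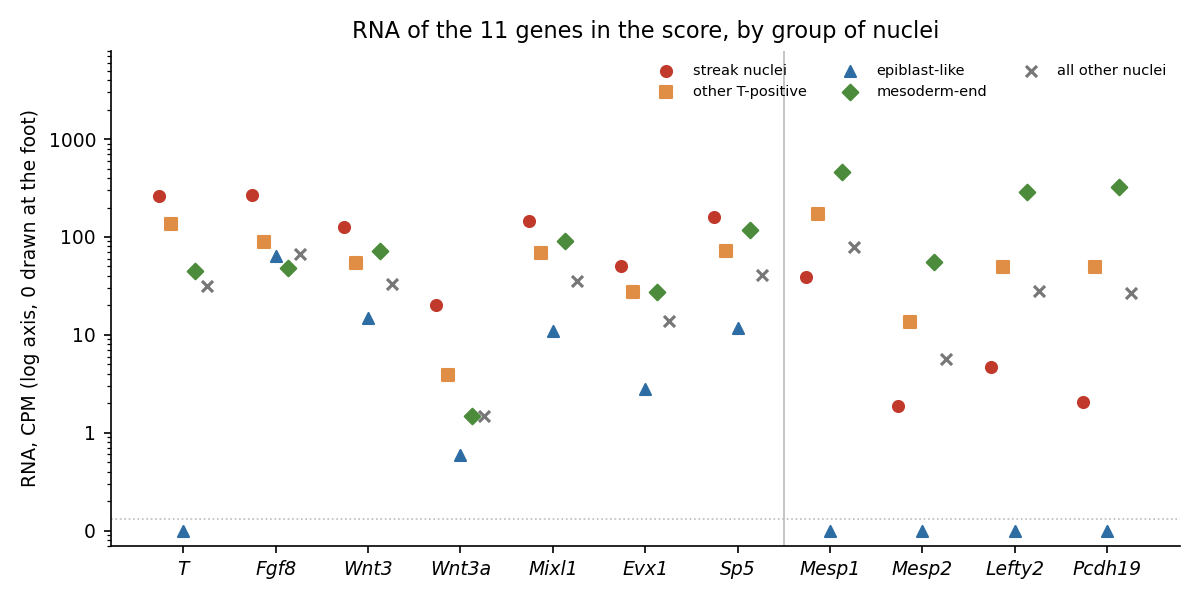
RNA in CPM (log axis, with 0 drawn at the foot) of the 11 genes in the score, 1 point per gene and group of nuclei, with the 7 streak markers left of the line and the 4 subtracted genes right of it. Streak nuclei are highest for all 7 markers, and Wnt3, Mixl1, Evx1 and Sp5 are next highest in mesoderm-end or other T-positive nuclei; the score chose the nuclei on these values.

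Because the choice used these counts, the nuclei were also chosen on a random division of each nucleus's UMIs and measured on the UMIs not used. T was then 6.23-fold (5.68 to 6.83) above all other nuclei, in place of 8.28-fold (7.79 to 8.80). The corresponding values were 2.98 for Fgf8, 2.87 for Wnt3, 7.27 for Wnt3a, 3.15 for Mixl1, 2.47 for Evx1 and 2.81 for Sp5. The 7 markers were thus above all other nuclei on the unused UMIs, at smaller ratios. Of the 4 subtracted genes, Mesp1 stood at 77.8 CPM on the unused UMIs against 76.3 in all other nuclei, a ratio of 1.02 (0.886 to 1.17), and Mesp2 at 5.02 against 5.15, a ratio of 0.9754 (0.528 to 1.66), so neither differed beyond counting error. Lefty2 (0.508, 0.362 to 0.694) and Pcdh19 (0.347, 0.226 to 0.511) were below them. Against mesoderm-end nuclei chosen the same way, the 4 ratios ran from 0.0343 for Pcdh19 to 0.205 for Mesp1. Over mesoderm-end nuclei chosen the same way, T was 3.62-fold, Fgf8 3.40-fold and Wnt3a 6.15-fold higher on the unused UMIs, whereas Wnt3 (1.11, 0.928 to 1.32), Mixl1 (1.07, 0.914 to 1.26), Evx1 (0.951, 0.714 to 1.27) and Sp5 (0.922, 0.793 to 1.07) did not differ beyond counting error. Of the 450 nuclei chosen this way, 262 (58.2%) were among the set described here, so membership of single nuclei was not well determined at this depth.

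The label was then set against the marker lists of other tissues. The 7 visceral endoderm genes summed to 753 CPM in streak nuclei, 3267 in all other nuclei, 435 in epiblast-like nuclei, 776 in mesoderm-end nuclei and 18990 in visceral endoderm-end nuclei. Apob and Cubn of this list had been chosen to be low in epiblast-like nuclei. Visceral endoderm-end nuclei were chosen on all 7 genes, so the sums in these groups follow in part from the choice. Apoa1 and Ttr, secreted proteins of visceral endoderm, made up 187 and 145 CPM of the sum in streak nuclei. The part of this RNA in any result below was not tested. The 6 extraembryonic ectoderm genes summed to 37.8 CPM (157.8 in all other nuclei), the 5 ectoplacental cone genes to 16.3 (37.5), with Tpbpa at 0, the 6 haemato-endothelial genes to 53.9 (101.2) and the 5 parietal endoderm genes to 287 (498). The 6 goblet and intestine genes held 1.12 CPM, with the defining mucin gene Muc2 and with Tff3 and Clca1 at 0. The RNA thus matched the embryonic label and not the goblet cell label.

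Counts of other genes use a ratio of at least 2 in sums of nuclei, among 11406 genes with at least 5 CPM over all nuclei of the depth range. Of these, 1.38% lay 2-fold above and 6.22% lay 2-fold below all other nuclei in streak nuclei. Against epiblast-like nuclei 5.5% lay above and 3.33% below, and against mesoderm-end nuclei 5.65% above and 3.01% below. Against other T-positive nuclei 0.509% lay above. The median log2 ratio over all tested genes was -0.02 against all other nuclei and 0.03 against epiblast-like and against mesoderm-end nuclei. The nuclei were selected on 11 genes of the same RNA, and the epiblast-like and mesoderm-end groups were selected on RNA too, so these ratios are a description.

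Of the 10 Wnt ligand genes 5 passed the level filter, and Wnt3 and Wnt5a were 2-fold above and Wnt7b was 2-fold below epiblast-like nuclei. Outside the 2 ligands of the score the list stood 1.95-fold (1.66 to 2.30) above epiblast-like nuclei, did not differ beyond counting error from all other nuclei (1.09, 0.993 to 1.20), and was 0.638-fold (0.566 to 0.718) of mesoderm-end nuclei. Wnt8a, a ligand of the posterior epiblast and streak, was below the filter but stood at 14.2 CPM against 3.06 in all other nuclei and 3.76 in epiblast-like nuclei, a ratio of 4.65 (3.595 to 5.95) over all others. Wnt5a, a ligand of the non-canonical branch, was higher in mesoderm-end nuclei at 71.1 CPM than in streak nuclei at 12.5 CPM.

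Receptors and enhancers of Wnt signalling lay mostly between the 2-fold limits. Of 19 genes 13 passed the filter, 4 were 2-fold above epiblast-like nuclei and none was 2-fold below, with a median log2 ratio of 0.06. Rspo3, a secreted enhancer of Wnt reception, stood at 207 CPM against 31.2 in epiblast-like nuclei, a ratio of 6.62 (5.595 to 7.87). Lgr5, a receptor for R-spondins, stood at 121 CPM in streak nuclei, 28.5 in all other nuclei, 6.72 in epiblast-like nuclei and 5.98 in mesoderm-end nuclei. Lgr5 was therefore high against both neighbouring states. Fzd10, a Frizzled receptor below the filter, stood at 9.55 CPM against 1.89 in all other nuclei, a ratio of 5.06 (3.68 to 6.86).

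Of the 12 Wnt target genes 9 passed the filter. Against epiblast-like nuclei 6 were 2-fold above and none was 2-fold below, with a median log2 ratio of 1.36, and without Sp5 the list stood 1.47-fold above (1.41 to 1.53). Axin2, a feedback inhibitor and a standard readout of the pathway, stood at 98.7 CPM in streak nuclei, 44.8 in all other nuclei, 24.1 in epiblast-like nuclei and 64.9 in mesoderm-end nuclei. Sp8, a paralogue of Sp5, was 4.92-fold and Nkd1, a cytoplasmic Wnt inhibitor, 4.11-fold above epiblast-like nuclei. Lef1, the nuclear effector of the pathway, was only 1.15-fold above epiblast-like nuclei and stood highest in mesoderm-end nuclei at 1273 CPM, against 488 in streak nuclei. Target genes thus differed in which of the states they marked.

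The 7 Wnt inhibitors stood 3.15-fold (2.83 to 3.51) above epiblast-like nuclei as a sum, with 3 of 7 genes 2-fold above and 1 below. Cer1, an antagonist of Nodal, BMP and Wnt, stood at 60.1 CPM against 4.55 in epiblast-like nuclei. Frzb, a secreted Frizzled-related protein, stood at 85.9 against 6.72, and Dkk1, which blocks Wnt co-receptors, at 47.9 against 7.32. Sfrp2 was the gene below, at 9.17 against 20.4 CPM.

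Among FGF genes, of 5 tested FGF ligands Fgf8, a gene of the score, and Fgf10 were 2-fold above epiblast-like nuclei and Fgf15 was 2-fold below. Without Fgf8 the list stood at 0.922-fold (0.863 to 0.985) of epiblast-like nuclei, which had been chosen on another of its genes, Fgf5. Fgf10, a ligand of nascent mesoderm, stood at 48.5 CPM in streak nuclei, 4.55 in epiblast-like nuclei and 335 in mesoderm-end nuclei. Of the 9 FGF target genes only Il17rd, a feedback inhibitor, passed 2-fold, at 222 against 89.4 CPM, while Dusp6, a phosphatase induced by FGF signalling, was 1.80-fold (1.59 to 2.05) above epiblast-like nuclei and Etv5, an ETS factor, was 0.821-fold (0.736 to 0.916).

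Of 14 Nodal pathway genes 11 were tested, 3 were 2-fold above epiblast-like nuclei (Tdgf1, Lefty1 and Lefty2, the last set at 0 there by choice) and none was 2-fold below. Nodal itself, the ligand, stood at 59.0 CPM in streak nuclei, 33.4 in epiblast-like nuclei, 25.6 in all other nuclei and 7.67 in mesoderm-end nuclei. Its co-receptor Tdgf1 stood at 351, 110, 153 and 447 CPM in the same order. Nodal RNA was therefore low in the mesoderm-end group where Tdgf1 RNA was highest. Of the 9 BMP pathway genes 4 were 2-fold above epiblast-like nuclei. They included the ligands Bmp2 (46.8 against 3.95 CPM) and Bmp7 (47.0 against 3.95) and the response gene Id1 (262 against 81.9).

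Of 7 T-box genes 4 were tested, and T, Eomes, Tbx3 and Tbx20 were 2-fold above epiblast-like nuclei, T by choice of both groups. Without T the list stood 4.24-fold (3.83 to 4.71) above. Of 15 posterior homeobox genes only Evx1, Mixl1 and Cdx2 passed the filter. Eomes, the T-box partner of T in the streak, stood at 313 CPM in streak nuclei, 136 in all other nuclei, 71.8 in epiblast-like nuclei and 293 in mesoderm-end nuclei, so that it was 4.36-fold (3.89 to 4.89) above epiblast-like nuclei and within counting error of mesoderm-end nuclei at 1.07-fold (0.994 to 1.14). Its lowest, median and highest counts per streak nucleus were 0, 3 and 20 UMIs. Tbx6, a target of T in paraxial mesoderm, held 19 UMIs in all. Cdx1, a caudal homeobox gene, held 23 UMIs in streak nuclei and 0 in epiblast-like nuclei. Hes1, a Notch-responsive repressor, stood at 233 CPM against 100.4 in epiblast-like nuclei.

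The 8 epiblast genes summed to 1507 CPM in streak nuclei, between 4036 in epiblast-like and 699 in mesoderm-end nuclei. Of the 8, 6 were 2-fold below epiblast-like nuclei and 0 above. Against mesoderm-end nuclei 4 were 2-fold above and 0 below. The genes that chose the epiblast-like group are a description: Pou5f1 (Oct4, the pluripotency factor) stood at 172 CPM against 297 in epiblast-like and 98.9 in mesoderm-end nuclei, Utf1 at 68.1 against 334 and 48.1, and Dnmt3b at 688 against 1818 in epiblast-like nuclei. Outside that choice, Sox2, a factor of epiblast and neural fate, stood at 23.8 CPM against 93.7 in epiblast-like nuclei, a ratio of 0.254 (0.207 to 0.309). Pim2, a kinase gene of the epiblast, stood at 137 against 424 CPM.

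Nanog differed from Sox2 and Pim2. It stood at 75.1 CPM in streak nuclei, 24.4 in all other nuclei, 35.8 in epiblast-like nuclei and 13.3 in mesoderm-end nuclei, a ratio of 2.10 (1.76 to 2.51) over epiblast-like nuclei. A Nanog UMI was present in 48.7% of streak nuclei, 27.1% of epiblast-like nuclei and 7.78% of visceral endoderm-end nuclei, which were deeper. Of the 11 pluripotency genes 4 were 2-fold below epiblast-like nuclei, 2 were 2-fold above (Nanog and Esrrb, the latter chosen to be low in epiblast-like nuclei) and 5 lay between.

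The summed RNA of epithelial and of mesenchymal genes lay between its levels in epiblast-like and mesoderm-end nuclei. The 8 epithelial genes summed to 805 CPM in streak nuclei, 1328 in epiblast-like nuclei and 410.2 in mesoderm-end nuclei, a ratio of 0.606 (0.583 to 0.630) to epiblast-like nuclei, with Ocln and Crb3, genes of tight junctions and cell polarity, 2-fold below among the 8. Against mesoderm-end nuclei 4 of the 8 were 2-fold above and 1, the laminin gene Lama1, was 2-fold below at 13.7 against 114 CPM. Cdh1, the epithelial cadherin, stood at 209 CPM against 359 and 51.4. Of the 10 mesenchymal genes 9 were tested, and their sum was 3.16-fold (3.02 to 3.30) above epiblast-like nuclei with 6 genes 2-fold above, and 0.410-fold (0.4001 to 0.420) of mesoderm-end nuclei with 6 genes 2-fold below.

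Cdh2, the mesenchymal cadherin, stood at 508 CPM in streak nuclei, 81.7 in epiblast-like nuclei and 985 in mesoderm-end nuclei. Snai1, the repressor of Cdh1, stood at 49.05, 16.0 and 168 CPM, and Zeb2, another such repressor, at 156, 51.8 and 452 CPM. Fn1, the fibronectin gene, stood at 506, 117 and 1463 CPM. Each of these genes was thus placed in the same order, epiblast-like, streak and mesoderm-end. Vim and Epb41l5 stood near the epiblast-like level, at 1.17-fold (0.913 to 1.51) and 1.05-fold of it.

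**Figure D2:**
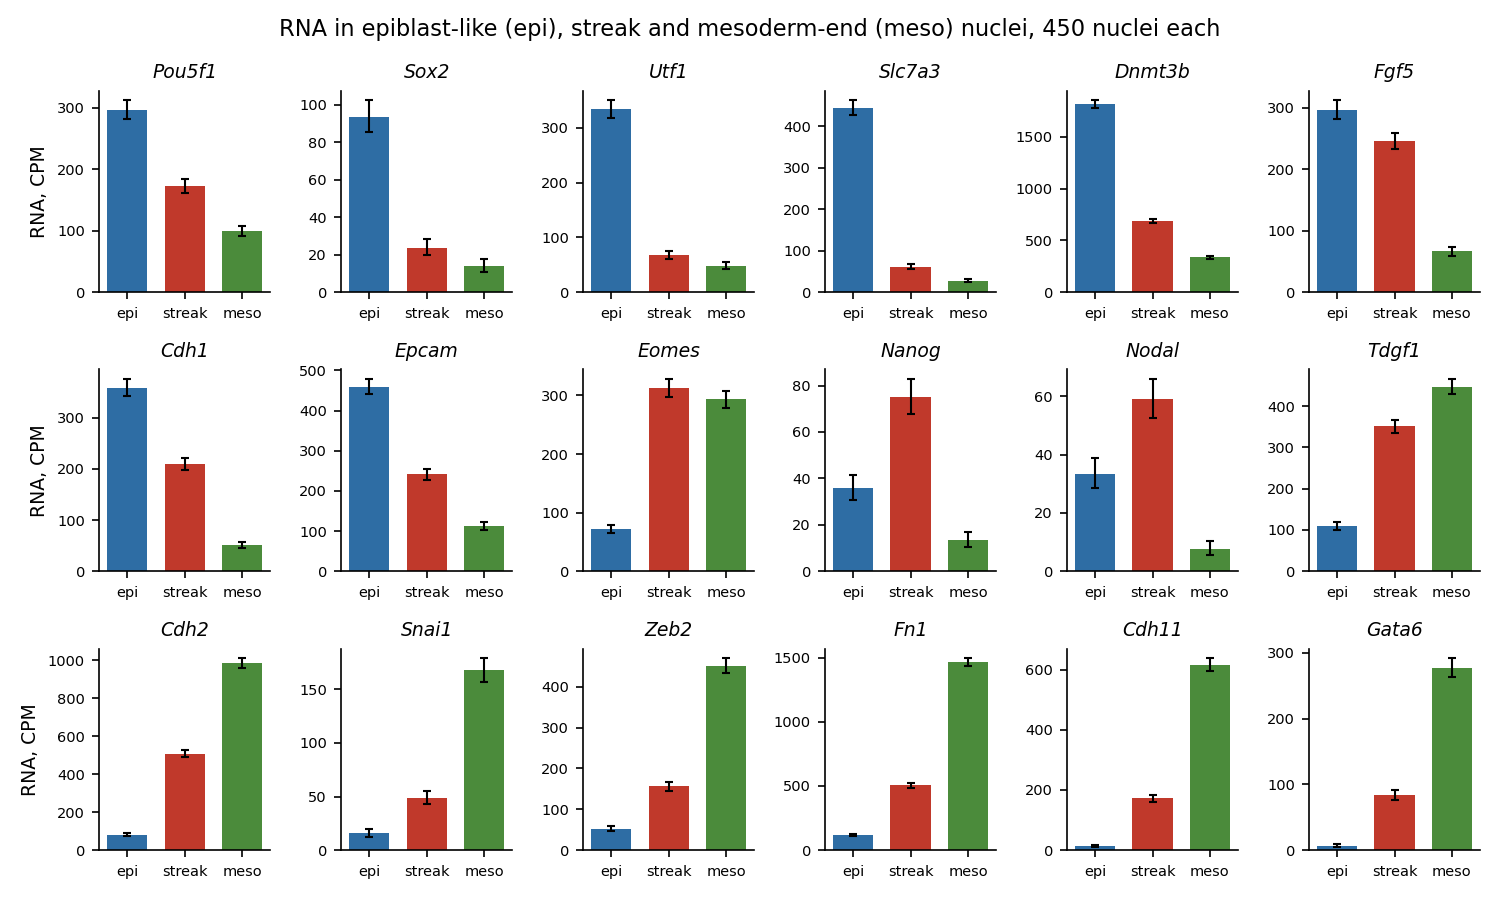
RNA in CPM of 18 genes in epiblast-like, streak and mesoderm-end nuclei, 450 nuclei each, with bars for the sums and exact 95% Poisson intervals for counting error. Streak nuclei lie between the other groups for Cdh1, Cdh2, Snai1, Zeb2 and Fn1, and are highest for Nanog (75.1 CPM) and Nodal (59.0 CPM).

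Nascent mesoderm genes were described next. Gata6, a zinc finger factor of mesoderm and endoderm, stood at 83.3 CPM in streak nuclei, 6.13 in epiblast-like nuclei and 278 in mesoderm-end nuclei. Pdgfra, a receptor of nascent mesoderm, stood at 38.6 CPM against 4.75 and 279. Msgn1, a marker of presomitic mesoderm, was at 0. Of the 12 genes of this list 10 were tested, of which 9 were 2-fold above epiblast-like nuclei and 9 were 2-fold below mesoderm-end nuclei. In both counts 4 were the subtracted genes of the score, set at 0 in epiblast-like nuclei and high in mesoderm-end nuclei by choice.

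Cell cycle genes gave little difference. All 8 S phase and all 8 G2 and M phase genes lay between 2-fold limits against all other, epiblast-like and mesoderm-end nuclei, and the S phase sum was 0.895-fold (0.869 to 0.921) of epiblast-like nuclei.

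The 20 genes with the highest ratio over all other nuclei, outside the score, included several not in any list. Fst, which encodes the activin inhibitor follistatin, stood at 652 CPM against 149 in all other nuclei, 131 in epiblast-like nuclei and 189 in mesoderm-end nuclei, a ratio of 4.38 (4.22 to 4.54) over all others. Slit3, a guidance ligand, stood at 923 CPM against 256, and Tiam2, an exchange factor for Rac, at 252 against 59.2. Igfbp3, an IGF-binding protein, stood at 45.7 against 10.5, and Alcam, an adhesion molecule, at 93.0 against 23.7. Ranking required 50 UMIs and a UMI in 10% of nuclei in the streak nuclei, and Gad1os, Fzd10, Wnt8a and Olig1 among the 20 were below 5 CPM over all nuclei, so that they were ranked only through the group where they are high. The highest ratio, 5.52, belonged to Gad1os, an antisense transcript. Whether its reads were kept apart from those of Gad1 is likewise not known. Pkd1l1, a ciliary polycystin gene, stood at 100.2 CPM against 19.2, Tll1, a metalloprotease that cleaves Chordin, at 76.9 against 21.4, and Chrd, the BMP antagonist Chordin, at 43.8 against 11.1. Most UMIs of those 3 genes lay in a subset described further on, which was chosen in part on Pkd1l1 itself.

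Against epiblast-like nuclei the 15 genes with the highest ratio ran from 36.0-fold for Evx1os to 16.1-fold for Prdm1, a repressor gene. Evx1os overlaps the Evx1 locus, and whether its reads were kept apart from those of Evx1 is not known, as strand use in counting is not stated. Pcdh7, a protocadherin, was the most abundant of them at 1221 CPM against 38.6, a ratio of 31.7 (27.5 to 36.7), and stood at 2899 in mesoderm-end nuclei. Meis2, a homeobox gene, stood at 308 against 15.6 CPM. Col19a1 and Col23a1, collagen genes, were 32.5-fold and 21.6-fold above epiblast-like nuclei but near or below the level of all other nuclei, at 0.968-fold and 0.734-fold. Ranking used the same minimum in whichever group was higher. Adcyap1r1 and Gad1os among the 15 highest were below 5 CPM over all nuclei, and so were Insyn2b, Ralyl and Kcnk12 among the 15 lowest. Each of the 15 lowest had a UMI in under 10% of streak nuclei, so that they were ranked only through the epiblast-like nuclei, where they are high. They were led by Nxph1, a neurexophilin gene, at 0.749 CPM (4 UMIs in 4 nuclei) against 39.1, and included the channel genes Kcnh8 (8.99 against 137 CPM), Kcnc2 (11.04 against 112) and Grin2b (5.24 against 52.4). Kcnc2 stood at 124 CPM in mesoderm-end nuclei.

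Accessibility was not used to choose the nuclei, and it was measured as counts in peaks at the promoters of the 7 streak genes and in distal peaks within 50000 bp of their starts. The 9 promoter peaks summed to 255 CPM in streak nuclei, 161 in all other nuclei, 207 in other T-positive nuclei, 158 in epiblast-like nuclei, 253 in mesoderm-end nuclei and 109.8 in visceral endoderm-end nuclei. The ratio was 1.58 (1.49 to 1.67) over all other nuclei, 1.62 (1.48 to 1.77) over epiblast-like nuclei and 1.01 (0.934 to 1.09) over mesoderm-end nuclei. The 156 distal peaks gave 1.51 (1.47 to 1.55), 1.57 (1.504 to 1.64) and 1.07 (1.03 to 1.11). Summed marker loci were thus more open than in epiblast-like nuclei, and the summed promoters were even with mesoderm-end nuclei within counting error, with differences in both directions at single genes.

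The promoters of T, Sp5, Evx1 and Wnt3 are shown because these genes span the range of promoter ratios over epiblast-like nuclei, from the largest shown (Sp5) to no difference (Wnt3). Each is the 250 bases before the start on the plus strand, read from the RefSeq promoter table of GRCm38.p6, which matched 5 of the 7 markers. T lies at chr17:8434173-8434422, Sp5 at chr2:70474673-70474922, Evx1 at chr6:52313248-52313497 and Wnt3 at chr11:103773925-103774174, and 1 deposited peak overlaps each window. Capitals mark matches on either strand. The letters searched were CTTTGNT for TCF and LEF factors, TCACACCT for T-box factors, AGATAA for GATA factors, GGGCGG for SP and KLF factors, ATGCAAAT for POU factors, CCAAT for the CCAAT box and TATAAA for the TATA box.
T: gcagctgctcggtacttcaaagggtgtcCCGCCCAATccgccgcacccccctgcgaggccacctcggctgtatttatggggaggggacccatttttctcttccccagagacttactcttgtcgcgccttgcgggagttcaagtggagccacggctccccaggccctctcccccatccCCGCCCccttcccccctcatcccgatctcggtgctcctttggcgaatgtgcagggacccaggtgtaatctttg
Sp5: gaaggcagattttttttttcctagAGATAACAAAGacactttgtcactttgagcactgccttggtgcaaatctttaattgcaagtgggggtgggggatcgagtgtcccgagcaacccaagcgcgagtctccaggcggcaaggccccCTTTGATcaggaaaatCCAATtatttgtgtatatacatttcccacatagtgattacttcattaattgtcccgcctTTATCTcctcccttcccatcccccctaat
Evx1: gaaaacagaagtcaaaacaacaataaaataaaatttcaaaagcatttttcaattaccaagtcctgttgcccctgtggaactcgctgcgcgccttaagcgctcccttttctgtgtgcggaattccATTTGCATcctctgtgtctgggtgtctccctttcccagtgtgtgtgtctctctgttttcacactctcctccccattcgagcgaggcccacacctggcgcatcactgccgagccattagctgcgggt
Wnt3: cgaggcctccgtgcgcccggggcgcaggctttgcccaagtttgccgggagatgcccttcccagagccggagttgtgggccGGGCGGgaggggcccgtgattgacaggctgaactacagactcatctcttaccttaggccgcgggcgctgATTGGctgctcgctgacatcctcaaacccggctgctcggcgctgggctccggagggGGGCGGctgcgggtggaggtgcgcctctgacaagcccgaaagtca

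The Sp5 window held CTTTGNT matches 222 and 104 bases upstream of the start, of which the first overlaps an AGATAA match. The CTTTGNT motif was present in 16.0% of all 32851 promoter windows of the same length and in 12.3% of the 11510 windows of tested genes. It was present in 15.7% of 648 windows of genes 2-fold above epiblast-like nuclei and in 15.3% of 418 windows of genes 2-fold below. The Sp5 window also held a second AGATAA match 29 bases and a CCAAT match 88 bases upstream. AGATAA was found in 9.99% of all windows and in 5.64% of those of tested genes. The Evx1 window held an ATGCAAAT match 126 bases upstream, a motif found in 1.60% of all windows. The T and Wnt3 windows held GGGCGG and CCAAT matches, found in 32.7% and 33.8% of all windows and in 58.5% and 35.3% of those of tested genes, and in the T window a GGGCGG and a CCAAT match overlap. These are letter matches and not shown to be sites.

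Per gene, the Sp5 promoter stood at 44.8 CPM in streak nuclei, 18.3 in epiblast-like nuclei and 60.4 in mesoderm-end nuclei, ratios of 2.44 (1.91 to 3.15) and 0.742 (0.623 to 0.882). The Mixl1 promoter stood at 45.6 CPM against 15.9 and 46.4, a ratio of 2.86 (2.22 to 3.73) over epiblast-like nuclei. In RNA, on UMIs not used for the choice, Sp5 was 12.5-fold (8.30 to 19.5) and Mixl1 7.67-fold (5.47 to 11.04) above epiblast-like nuclei. For these RNA ratios both groups had been chosen again on the remaining UMIs. Of the streak nuclei chosen so, 262 (58.2%) were among those whose promoters are given, so the sets differ. The T promoter was 1.25-fold (1.002 to 1.57) above epiblast-like nuclei, which held no T RNA by choice, and 1.52-fold (1.30 to 1.76) above all other nuclei. The Wnt3 promoter did not differ beyond counting error from any of them, at 1.07-fold (0.878 to 1.29) of all other nuclei and 0.928-fold (0.708 to 1.21) of epiblast-like nuclei. Among the 7 promoters, only that of Fgf8 had an interval wholly above 1 over mesoderm-end nuclei: it stood at 1.75-fold (1.37 to 2.23). Distal sums separated streak from epiblast-like nuclei at all 7 genes, from 1.22-fold (1.09 to 1.35) at Evx1 to 2.09-fold (1.83 to 2.40) at Sp5.

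**Figure D3:**
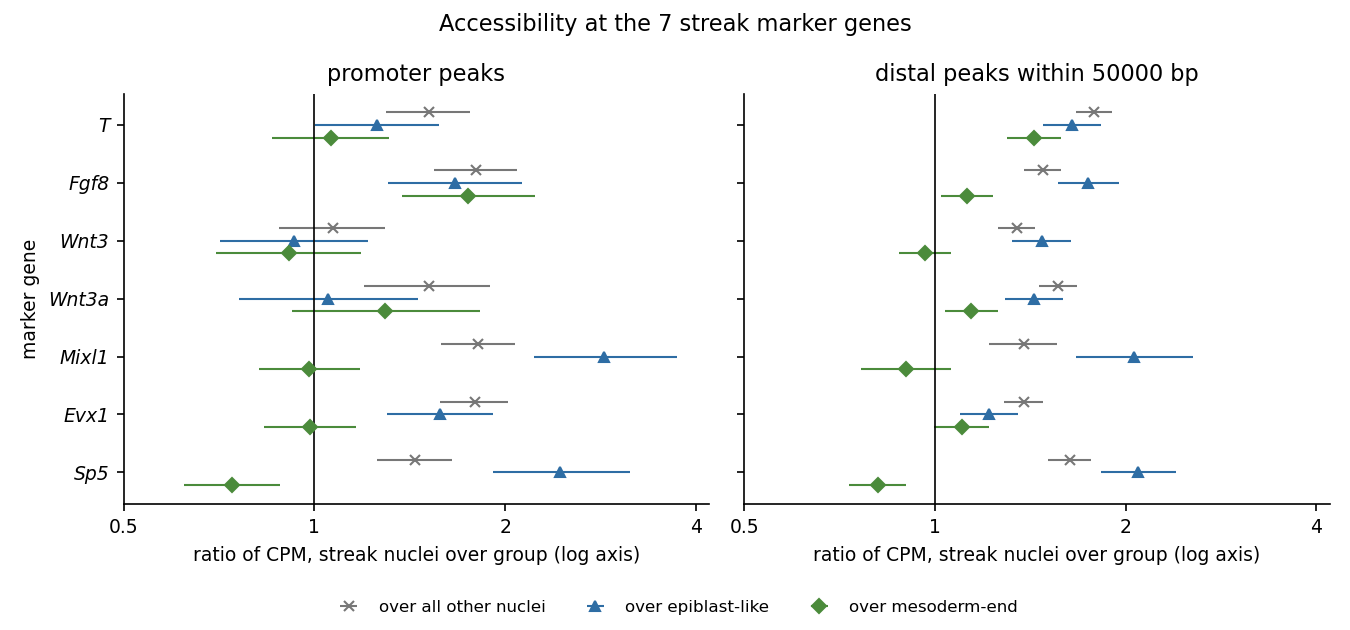
Ratio of accessibility (log axis) of streak nuclei over 3 groups at the 7 marker genes, for promoter peaks and for distal peaks within 50000 bp, with exact 95% intervals for counting error. Distal ratios over epiblast-like nuclei lie above 1 at every gene, and promoter ratios over epiblast-like nuclei run from 0.928 at Wnt3 to 2.86 at Mixl1.

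Single peaks at these loci were counted among those with at least 5 CPM over all nuclei, a level that does not depend on the streak nuclei alone. Among the 22410 distal peaks with at least 5 CPM over all nuclei, 1.9% were 2-fold above and 9.06% 2-fold below all other nuclei, 12.8% were 2-fold above epiblast-like nuclei and 0.339% were 2-fold above other T-positive nuclei. Of the 156 distal peaks of the marker loci 49 passed this filter, of which 10 (4 of 6 at T, 2 of 11 at Wnt3a and 1 each at Fgf8, Wnt3, Evx1 and Sp5) were 2-fold above all other nuclei and none was 2-fold below. Against epiblast-like nuclei 18 of the 49 were 2-fold above. Against mesoderm-end nuclei only 2 of the 49 were 2-fold above and 1 was 2-fold below, for which the share over all distal peaks is not given here.

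The peak with the highest ratio at each gene was taken among peaks with at least 50 counts in streak and epiblast-like nuclei together. Those of T, Mixl1 and Sp5 stood at 2.97, 3.68 and 3.38 CPM over all nuclei, below the filter, and were named for their counts in streak nuclei, where they are high. That of T, chr17:8414245-8414835, lies 19883 bp from the start and stood at 9.55 CPM in streak nuclei, 2.69 in all other nuclei, 5.19 in epiblast-like nuclei and 3.48 in mesoderm-end nuclei, 3.54-fold (2.60 to 4.75) over all others. A stronger peak 45091 bp away, chr17:8388897-8389767, stood at 56.2 CPM against 23.4, 20.8 and 40.7, a ratio of 2.40 (2.12 to 2.71). At Wnt3a the highest was chr11:59243520-59244445 at 17.6 against 5.04 CPM, 3.50-fold (2.76 to 4.39). Mixl1 had chr1:180702400-180703237, 5784 bp from the start, at 9.24 against 3.45 CPM in all other nuclei and 0.994 in epiblast-like nuclei. Outside the streak nuclei the first T peak was highest in epiblast-like nuclei, over which the ratio was 1.84 (1.13 to 3.05).

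At Sp5 the highest ratio belonged to chr2:70505677-70506567, 31199 bp from the start, at 7.77 CPM in streak nuclei, 3.20 in all other nuclei, 1.55 in epiblast-like nuclei and 0.409 in mesoderm-end nuclei. At Evx1 the peak chr6:52311168-52311924 stood at 15.9 CPM against 6.79 in all other and 16.2 in mesoderm-end nuclei. At Wnt3 the peak chr11:103808321-103809215 stood at 27.2 against 11.8 and 31.0 CPM, and at Fgf8 the peak chr19:45734910-45735836 at 31.0 CPM in streak and 25.1 in mesoderm-end nuclei. These 3 peaks were shared with mesoderm-end nuclei.

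**Figure D4:**
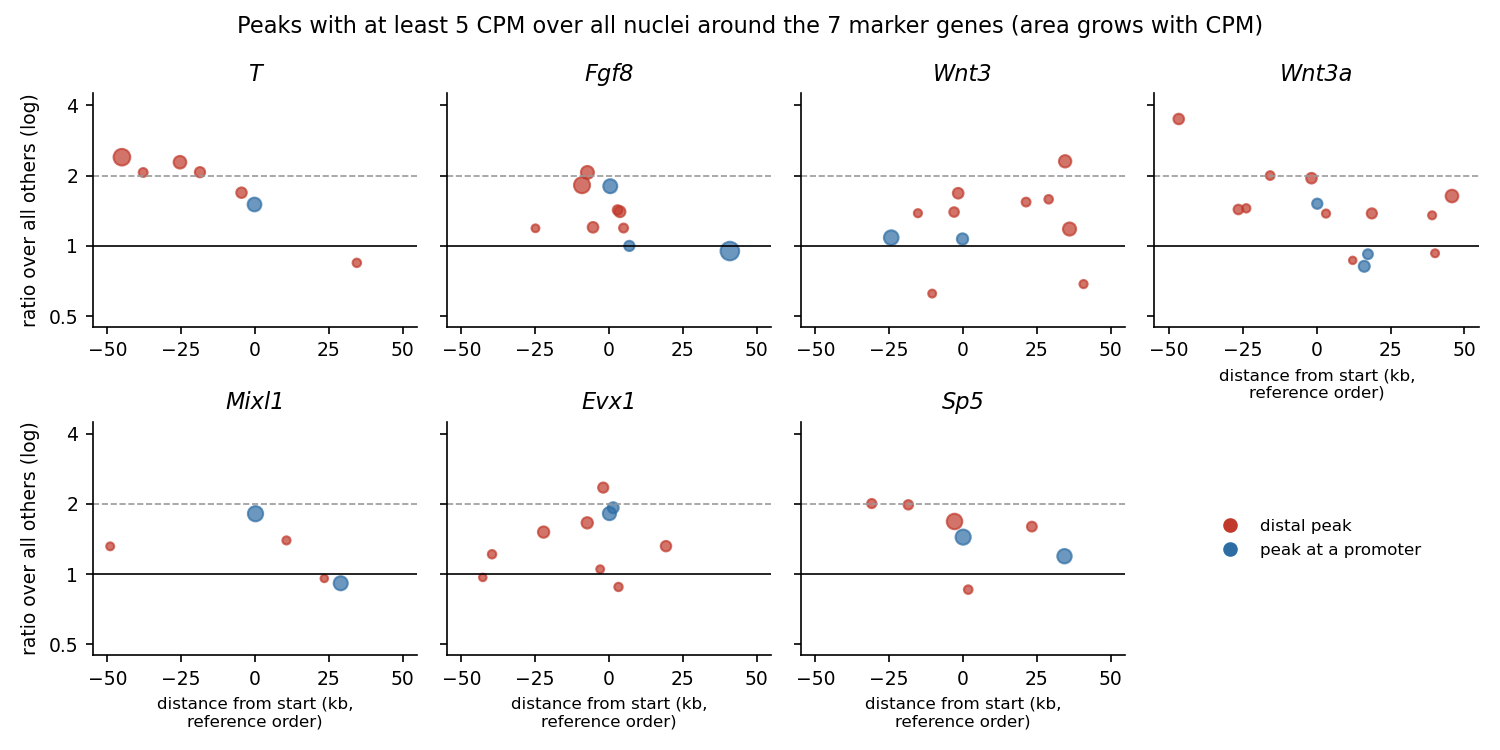
Ratio of accessibility of streak nuclei over all other nuclei (log axis) against distance from the start in kb, in the order of the reference coordinates, for each peak with at least 5 CPM over all nuclei around the 7 marker genes; point area grows with CPM. The solid line is a ratio of 1 and the dashed line a ratio of 2, and the highest point is the Wnt3a peak 46770 bp from the start at 3.50.

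At genes outside the score, promoter accessibility and RNA did not always move together. The Eomes promoter was 0.822-fold (0.654 to 1.03) of epiblast-like nuclei while its 22 distal peaks were 1.76-fold (1.55 to 2.001) above, with RNA at 4.36-fold. The Nanog promoter was 1.09-fold (0.792 to 1.497) of epiblast-like nuclei with RNA at 2.10-fold, and 1.65-fold (1.32 to 2.05) above all other nuclei. The Cdx1 promoter, with RNA of only 23 UMIs, stood at 48.9 CPM against 21.0 in all other nuclei, 17.3 in epiblast-like nuclei and 27.0 in mesoderm-end nuclei, 2.33-fold (2.04 to 2.65) above all others. Pou5f1 promoters were 0.716-fold (0.616 to 0.832) of epiblast-like nuclei and 2.10-fold (1.72 to 2.56) above mesoderm-end nuclei, and the Cdh1 promoters were 0.783-fold (0.650 to 0.943) and 1.88-fold (1.496 to 2.38). At Mesp1, a gene of the score, the 17 distal peaks were 2.18-fold (1.88 to 2.52) above epiblast-like nuclei and 0.531-fold (0.481 to 0.586) of mesoderm-end nuclei. Its RNA, on which all of these groups were chosen, lay in the same order. It stood at 0 CPM in epiblast-like, 38.9 in streak and 457 in mesoderm-end nuclei.

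Over the whole set of distal peaks the 10 with the highest ratio over all other nuclei held 52 to 91 counts in streak nuclei. They stood at 1.28 to 2.08 CPM over all nuclei, below the filter used for the shares above, and entered only through at least 50 counts in the streak nuclei, where they are high. Among them chr2:127140506-127141344, 1665 bp from Itpripl1, stood at 9.55 against 1.77 CPM, 5.41-fold (3.86 to 7.44), and chr3:30365860-30366747, 143430 bp from the zinc finger gene Mecom, stood at 7.45 CPM. None of the 10 lay within 50000 bp of a marker gene. The 10 highest over epiblast-like nuclei had 0 counts there, so no ratio is given.

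T-positive nuclei below the boundary were taken in 5 further sets of 450 by falling score. Marker promoter accessibility was 255, 235, 194, 175, 173 and 242 CPM from the streak nuclei downward, and distal accessibility 1060, 943, 829, 682, 728 and 970 CPM. With the streak nuclei as set 1, the promoter value was thus lowest in set 5 and the distal value in set 4. Both were higher again in set 6. The lowest-scoring T-positive nuclei lay beyond set 6 and entered none of these sets. Nanog RNA stood at 75.1, 60.7, 33.8, 23.8, 22.7 and 22.3 CPM over the same sets and Nodal at 59.0, 45.7, 28.3, 22.2, 17.7 and 11.6, while Fn1 stood at 506, 486, 538, 458, 557 and 1216. Median UMIs also differed between these sets, from 11105 to 14571, and the part of depth in the pattern was not tested.

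In a space built from peaks alone, each nucleus was given its 15 nearest neighbours. Of the 6750 neighbours of streak nuclei 27.8% were streak nuclei themselves, whereas streak nuclei were 3.88% of all nuclei. With the nuclei chosen on 3000 UMIs each the share was 15.7%. The median streak nucleus had 4 such neighbours and the highest 13, and 394 nuclei (87.6%) had at least 1. Other T-positive nuclei supplied 35.4% of the neighbours (20.03% of all nuclei), epiblast-like nuclei 0.696% and mesoderm-end nuclei 0.993%. For comparison, mesoderm-end nuclei took 40.4% of their neighbours from their own group and epiblast-like nuclei 15.3%.

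Within the streak nuclei RNA of the anterior streak, node and endoderm list was uneven. Of its 10 genes 8 were tested and 4 were 2-fold above all other nuclei, against 1.38% of all tested genes. All 8 were 2-fold above epiblast-like nuclei (5.5% of all tested genes). Against mesoderm-end nuclei 7 were 2-fold above (5.65%) and 1 was 2-fold below (3.01%), and the sum of the list was 0.632-fold (0.608 to 0.657). Foxa2, the forkhead factor of axial mesoderm and endoderm, stood at 91.0 CPM against 31.0 in all other nuclei and 9.54 in mesoderm-end nuclei, with 0, 0 and 10 UMIs as lowest, median and highest count per nucleus. Gsc, a homeobox gene of the organizer, stood at 106 against 35.0, and Lhx1, a LIM homeobox gene, at 390 against 263, and at 1149 in mesoderm-end nuclei. Noto, a homeobox gene of the node, held 10 UMIs and Shh, the axial signal, 1 UMI. A Foxa2 UMI was present in 38.7% of streak nuclei and 43.1% of visceral endoderm-end nuclei, a tissue that expresses this gene, so that group gives no background for Foxa2.

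A subset was defined, after the data had been seen, as nuclei with at least 2 UMIs over the node and cilium genes Noto, Foxj1, Shh, Pkd1l1, Zbbx, Cfap44 and Spef2. It held 95 streak nuclei (21.1%), against 5.18% of all other nuclei, 2.22% of epiblast-like and 1.11% of mesoderm-end nuclei. Median depth was 11401 UMIs inside and 10838 outside, and median score 0.591 and 0.614. Pkd1l1 supplied most of the UMIs, with 535 in 115 streak nuclei and up to 25 in 1 nucleus. The name axial, used below for this subset, stands for the choice of genes and is not shown as an identity, as Noto and Shh RNA was almost absent.

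Several anterior genes were higher in these 95 axial nuclei. Lgr5 stood at 403 CPM in them and 42.6 in the other 355 streak nuclei, a ratio of 9.46 (7.94 to 11.3), Chrd at 154 and 13.2 and Tll1 at 252 and 28.02. Foxa2 stood at 248 and 47.2 CPM, Lhx1 at 1036 and 210.3, Cer1 at 182 and 26.1, and Bmp2 at 148 and 18.4. The 95 axial nuclei held 72.5% of the Lgr5 UMIs and 76.5% of the Chrd UMIs of the streak nuclei. Outside the axial nuclei, Lgr5 was 1.49-fold (1.28 to 1.74) and Chrd 1.19-fold (0.891 to 1.55) of all other nuclei. The other 355 nuclei held 40.5% of the Foxa2 UMIs and 42.1% of the Lhx1 UMIs. Foxa2 in them was 1.52-fold (1.31 to 1.76) of all other nuclei. All other nuclei still included the 578 (5.18%) that meet the same choice of genes, so these ratios over them compare unlike groups.

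Several other genes, named after their values were seen, were lower in the axial nuclei. Evx1 stood at 12.9 CPM against 60.3 in the other streak nuclei, a ratio of 0.213 (0.118 to 0.358), Wnt3 at 54.9 against 146, Axin2 at 42.9 against 114 and Meis2 at 65.2 against 376. Ano5, an anoctamin gene, held 0 UMIs against 120. T was nearly even, at 233 against 267 CPM (0.874, 0.763 to 0.999), as was Eomes at 301 against 316. Sp5, a Wnt target, was higher in the axial nuclei at 231 against 142 CPM, unlike Axin2 and Sp8 (3.43 against 31.4). Evx1, Wnt3, T and Sp5 are genes of the score. All these nuclei had passed a cut-off on its sum, which ties their levels to one another, so their values here are a description.

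**Figure D5:**
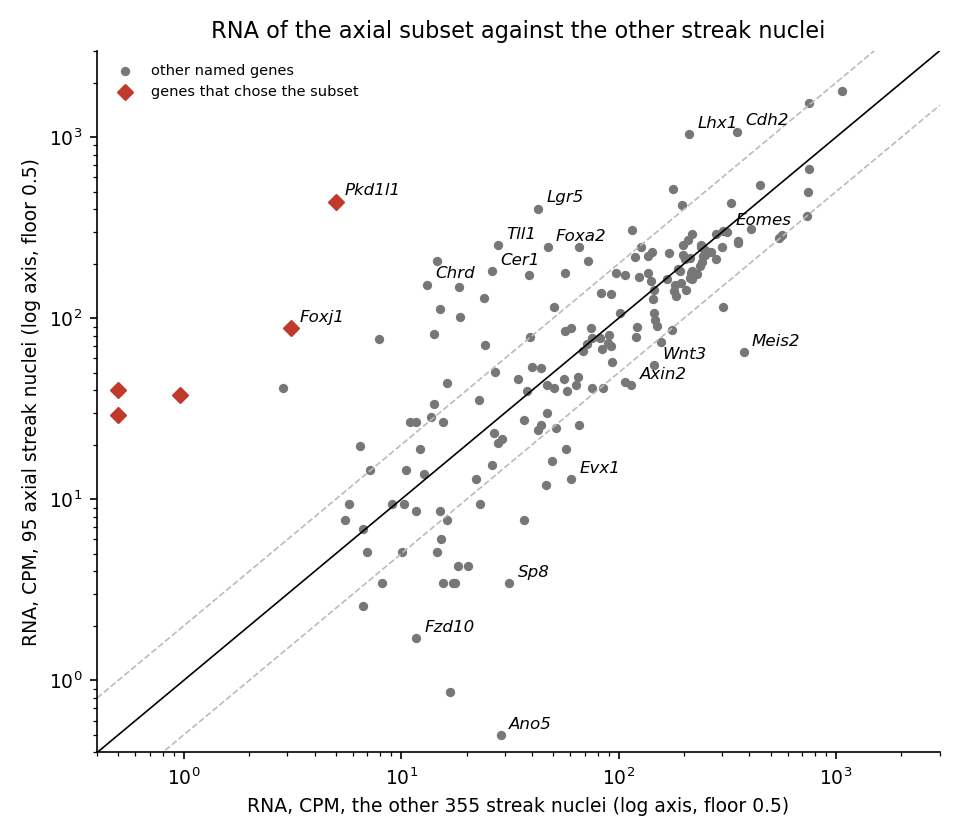
RNA in CPM (log axes, floor 0.5) of genes named here or in the lists with at least 30 UMIs in streak nuclei, in the 95 axial nuclei against the other 355 streak nuclei; the solid line is equality, dashed lines are 2-fold, and diamonds are genes that chose the subset. Lgr5, Chrd and Lhx1 lie above, Evx1, Meis2 and Ano5 below, and Eomes on the line.

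Accessibility, which did not choose the subset, differed at some of these loci. Marker promoters stood at 1.01-fold (0.884 to 1.16) and marker distal peaks at 0.968-fold (0.906 to 1.03) in axial over other streak nuclei. The 82 distal peaks of 6 of the node and cilium genes (Spef2 had none) were 1.43-fold (1.28 to 1.60) more open in axial nuclei, and the 6 promoter peaks of 5 of them (Pkd1l1 and Zbbx had none) were 1.05-fold (0.827 to 1.32). Distal ratios were 2.25 (1.69 to 2.97) at Pkd1l1, 1.58 (1.28 to 1.94) at Foxj1 and 1.496 (1.23 to 1.82) at Noto, but 1.04 (0.682 to 1.54) at Cfap44, 0.925 (0.393 to 1.95) at Zbbx and 0.829 (0.579 to 1.16) at Shh. Among genes that did not choose the subset, the distal and promoter ratios were 1.71 (1.46 to 1.998) and 1.16 (0.864 to 1.53) at Foxa2, and 1.96 (1.34 to 2.84) and 0.919 (0.615 to 1.34) at Lgr5. They were 1.15 (0.918 to 1.43) and 1.06 (0.692 to 1.58) at Chrd. At Cer1 the distal ratio was 1.31 (0.953 to 1.79) and the promoter ratio 3.20 (2.09 to 4.89). At Cdx1 the distal ratio was 0.780 (0.585 to 1.03) and the promoter ratio 0.529 (0.355 to 0.765), and at Evx1 they were 0.727 (0.596 to 0.879) and 0.736 (0.525 to 1.01). At each of these genes but Chrd, the interval thus excluded 1 for one kind of peak and included it for the other, and at Chrd it included 1 for both. Of the neighbours of axial nuclei in the space built from peaks, 18.1% were axial streak nuclei, which were 0.819% of all nuclei.

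Genes of primordial germ cells, which arise from the proximal posterior epiblast, stood as a sum at the level of all other nuclei and above that of epiblast-like nuclei. The 6-gene list summed to 89.1 CPM in streak nuclei, against 88.6 in all other nuclei, 27.5 in epiblast-like nuclei and 132 in visceral endoderm-end nuclei, where Prdm1 (Blimp1, the germ cell repressor) alone stood at 120.7. Of the 3 genes that passed the filter, 1 was 2-fold above all other nuclei and 2 were 2-fold above epiblast-like nuclei. Prdm14, another germ cell regulator, held 19 UMIs in 14 streak nuclei, and Dppa3 and Nanos3, later germ cell genes, held 4 and 5 UMIs in all streak nuclei. Prdm1, Tfap2c and Ifitm3 held 204, 163 and 81 of the 476 UMIs of the list in streak nuclei. Per streak nucleus the list had a median of 0 CPM and a highest value of 2156 CPM, so the sum lay in a minority of nuclei.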

How the data were processed

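Nuclear RNA and chromatin accessibility of pooled E7.0 mouse embryos were deposited as 1 sparse matrix. Per the file headers the matrix came from cellranger-arc 2.0.0, and per the submitters' processing notes Cell Ranger ARC 2.0.0 and mm10 were used. The deposited values were counts, not normalized: UMIs per gene and counts per peak, with 15341 barcodes. Strand use in counting was not given in the sources used here.

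Counts were summed over nuclei of each group and divided by group totals (CPM). Ratios carry exact conditional (Clopper-Pearson) 95% intervals, for peaks on fragments (count divided by 2, rounded up). A promoter ran 1000 bp to each side of the listed starts, which placed 11.0% of peaks at a promoter. Distal peaks were at no promoter and within 50000 bp. No test was run. Neighbours came from 30 singular vectors of weighted peaks, the first left out. Doublet calls (Scrublet, expected rate 0.1, scanpy 1.11.5) were counted but not removed. Genes were named by list (at least 20 UMIs in the streak nuclei), and by rank, the 20 highest ratios over all other nuclei and 15 highest and lowest over epiblast-like nuclei among genes with 50 UMIs and a UMI in 10% of nuclei in the group where the gene was higher. Python 3.11.15, numpy 2.4.6, scipy 1.17.1 and scikit-learn 1.9.0 were used. On simulated counts for 11406 genes, all 100 raised and all 100 lowered genes were recovered. The changes were set well beyond the 2-fold limit, so this recovery does not bear on changes near it. Intervals covered the true ratio in 95.4% of genes against all other nuclei and 95.5% against epiblast-like nuclei. Of the unchanged genes, 11 passed 2-fold against epiblast-like nuclei and 0 against all other nuclei. Counts were drawn from the profile of all nuclei in the depth range, scaled to the group totals, with counting error alone. Clumping of UMIs over nuclei and genes scarce in a single group were thus not covered.

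The streak nuclei and lists were chosen with earlier results of these data known. The node and cilium subset, the visceral endoderm-end group and the sets by falling score were added after the data had been seen. Alternatives covered the number of nuclei, thinning to 3000 UMIs, low-value filters, doublets, the T requirement, windows and the comparison group. A division of the streak nuclei into anterior and posterior sets is not reported here.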

Additional observations from a re-analysis of the deposited data

Results flagged for a closer look

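T RNA was also present in data outside the comparisons. The 3736 barcodes outside the depth range held 1230 T UMIs, or 32.5 CPM, against 39.8 CPM in the depth range, and above the 0.0792 CPM that a count of 0 would allow. These barcodes entered no group.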

How the results depend on the processing

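The share of streak nuclei among neighbours of streak nuclei was 24.1% with 300 nuclei chosen, 31.3% with 600, 15.7% when chosen on 3000 thinned UMIs, 25.4% with 50 neighbours and 26.6% without the axial nuclei. The Wnt target ratio over epiblast-like nuclei became 1.57 with 300 nuclei and 1.61 without axial nuclei. The epithelial ratio became 0.563 and 0.570. Choosing on thinned UMIs gave a marker distal ratio of 1.41 and a mesenchymal ratio of 3.56. Of 22410 distal peaks 199 were then 2-fold above all other nuclei, where 426 (1.9%) was the count as reported. Without a low-value filter the counts were 12773 distal peaks over all other nuclei and 44542 over epiblast-like nuclei, and 2206 and 3668 genes. With it 426 (1.9%) and 2866 (12.8%) of 22410 distal peaks and 157 (1.38%) and 627 (5.5%) of 11406 genes passed. The unfiltered counts came from all distal peaks or genes with any count, a larger base, so they cannot be set directly against the filtered ones. Against other T-positive nuclei the marker promoter ratio was 1.23 and the distal ratio 1.26, and 76 distal peaks (0.339%) and 58 genes (0.509%) were 2-fold above. Pkd1l1 reversed without the axial nuclei, to 0.261 of all other nuclei, since the subset was chosen on it and all other nuclei kept theirs. Of 196 gene ratios under alternatives, 135 stayed within their interval, 60 moved beyond it and 1 reversed, and 195 kept their side of 1. Choosing without a T UMI kept 369 of the 450 nuclei (82.0%), and leaving out doublet calls kept 439. Choosing on thinned UMIs kept 201 (44.7%). No paired analysis was possible because there was 1 library per assay. Depth limits single-nucleus statements, since the median streak nucleus held 2 T UMIs.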
